A study of Mus musculus with 4 samples.

Results

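Fibronectin and 9 matricellular genes were followed across 4 RNA-seq libraries of cultured mouse mammary tumour cells. The 10 genes were taken by exact symbol from the deposited gene table, which names 23361 genes: the fibronectin gene Fn1, the thrombospondins Thbs1, Thbs2 and Thbs3, tenascin C (Tnc), periostin (Postn), Sparc, the CCN genes Ctgf and Cyr61, and Tgfbi. All 10 had fragments in every library and all 10 passed the filter on low counts, as did 12987 genes in all. The cells derive from a mammary tumour of the Chaos3 mouse, strain C3HeB/FeJ by the labels, which carries a mutant Mcm4 allele. The 2 libraries labelled Low Arid1a come from the parental line 23116 MT. The 2 labelled High Arid1a come from the add-back clones AB-C1 and AB-C2, 1 library each, transduced with a lentiviral vector to over-express Arid1a, a DNA-binding subunit of the SWI/SNF chromatin remodelling complex. A clone descends from few cells, so add-back and clonal differences cannot be told apart within the High label. The table numbers the High-labelled libraries without naming the clone of each.

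Fibronectin is a secreted glycoprotein that cells assemble through integrins into fibrils, on which other matrix proteins are deposited. Matricellular proteins are secreted into the same matrix but serve mainly as signals and adaptors: they bind integrins, growth factors and proteases rather than bear load. In mammary tissue they are made at high levels by fibroblasts and myoepithelial cells, and many carcinoma lines with mesenchymal traits make them too. TGF-beta signalling, the YAP and TAZ coactivators with their TEAD partners, and the serum response factor SRF are known inducers of several of them.

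Library depth ran from 13889858 to 28110812 fragments. Arid1a itself, the check of the labels, was lower and not higher in the High-labelled libraries (54.1 ± 5.99 CPM against 88.2 ± 8.46 CPM, counts scaled to library size, SD, n = 2 each), without passing edgeR's test over both clones (adjusted p = 0.165). In the fit with each clone library alone, described below, it passed as 1.77-fold lower in High-labelled library 1 (adjusted p = 0.0362) and did not pass in library 2 (adjusted p = 0.167). Whether fragments of the vector insert were counted is not known, so every direction below is stated for the label. All 10 epithelial markers were detected, with summed levels of 1428 and 1007 FPKM in the Low-labelled libraries and 924 and 2859 FPKM in High-labelled libraries 1 and 2. FPKM, a fragment count scaled by transcript length and library size, allows levels to be compared between genes. Endothelial and leukocyte markers summed to at most 7.90 and 8.26 FPKM in any library, and the leukocyte genes Ptprc and Cd3e were near or at 0. Libraries of a pair differed beyond counting noise by 17.3% (Low-labelled) and 42.8% (High-labelled), as edgeR's common biological coefficient of variation.

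Most of the 10 genes were lower in both High-labelled libraries, and High-labelled library 2 held the lowest level of every one. In 7 of the 10 both High-labelled libraries lay below both Low-labelled libraries, against 25.1% of all tested genes, and in 0 of the 10 did both lie above. High-labelled library 2 was the lowest of the 4 libraries for 10 of 10, against 26% of tested genes. The 10 genes together took 0.924% and 0.987% of all fragments in the Low-labelled libraries, 0.844% in High-labelled library 1 and 0.322% in High-labelled library 2. Their share was close to the parental one in 1 clone library and well under it in the other. In High-labelled library 1, Thbs1 and Sparc, which stood above both Low-labelled libraries there, held 61420 and 34553 of the 139440 fragments. The summed share thus does not show the lower levels of most of the other genes.

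**Figure D1:**
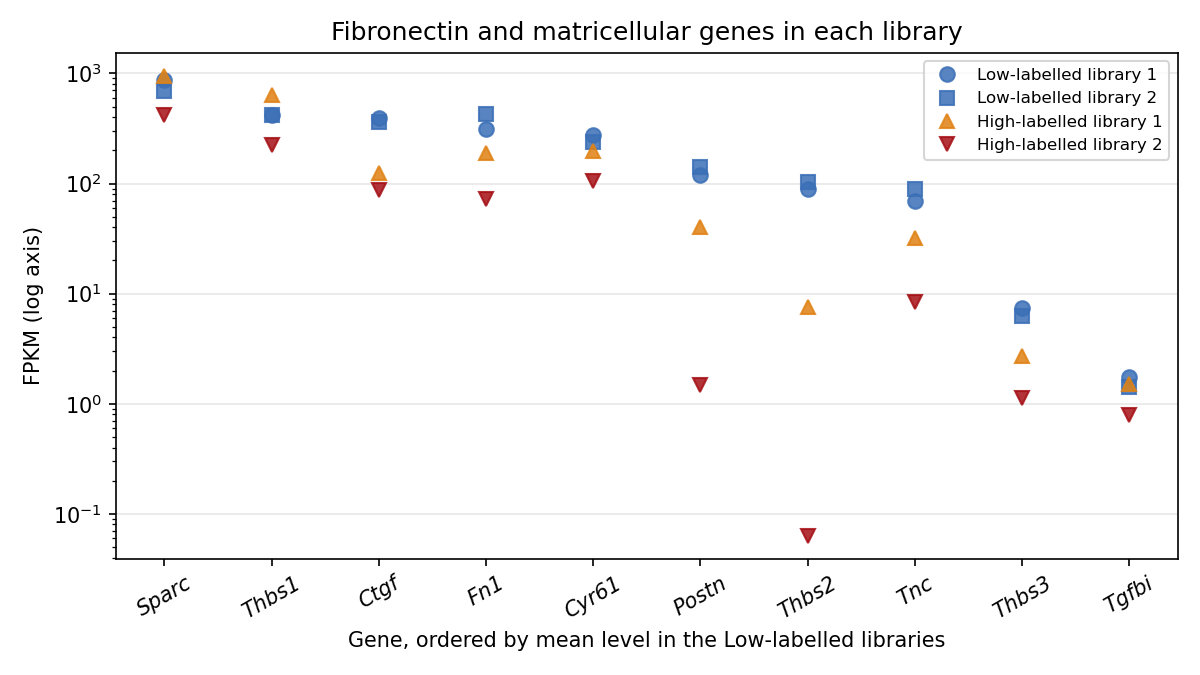
FPKM (log axis) of each of the 10 genes, ordered along the horizontal axis by mean level in the Low-labelled libraries, with 1 point per library. The inverted triangles of High-labelled library 2 are lowest for every gene and reach 0.0632 FPKM for Thbs2, while Sparc and Thbs1 in High-labelled library 1 stand above both Low-labelled points.

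With the High-labelled libraries taken as a group, edgeR's quasi-likelihood test called 1 of the 10 genes lower and 0 higher at a Benjamini-Hochberg adjusted p under 0.05. It called 1.33% of all tested genes lower and 1.14% higher. The single call was Ctgf. The median log2 fold change of the 10 was -1.67, where 0.03 was the median of all tested genes, and 3 of the 10 had an unadjusted p under 0.05. Without Low-labelled library 1 or 2 the test called 0 of the 10 and 0 of all genes (2 of the 10 at an unadjusted p under 0.05 each time). It called 9 of the 10 lower without High-labelled library 1 and 6 without High-labelled library 2, where it called 7.53% and 8.05% of all genes tested in those fits lower. In either direction those fits called 16.3% and 18.6% of all genes tested.

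The labels describe the High-labelled libraries as separate clones, so each was also set alone against the Low-labelled pair in a fit with 3 groups. That fit takes its spread from the Low-labelled duplicates, with 1 residual degree of freedom, and assumes that a lone clone library varies like them. The labels do not say that the duplicates were separate cultures, so its p-values measure a spread that may be technical. In High-labelled library 1, 6 of the 10 genes fell and 0 rose, where 8.19% of all tested genes fell and 10.7% rose. In High-labelled library 2, 9 of the 10 fell and 0 rose, where 8.15% fell and 9.16% rose. Between the clone libraries themselves, 7 of the 10 were higher in library 1 and 0 in library 2, where 6.47% of tested genes were higher in library 1 and 4.46% in library 2. The comparisons with the Low-labelled pair share those libraries. The fits that left out a High-labelled library also set 1 library against that pair and take their spread from the pair alone. A call kept in them does not measure variation between clones. The fits that left out a Low-labelled library take their spread from the High-labelled pair alone.

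**Figure D2:**
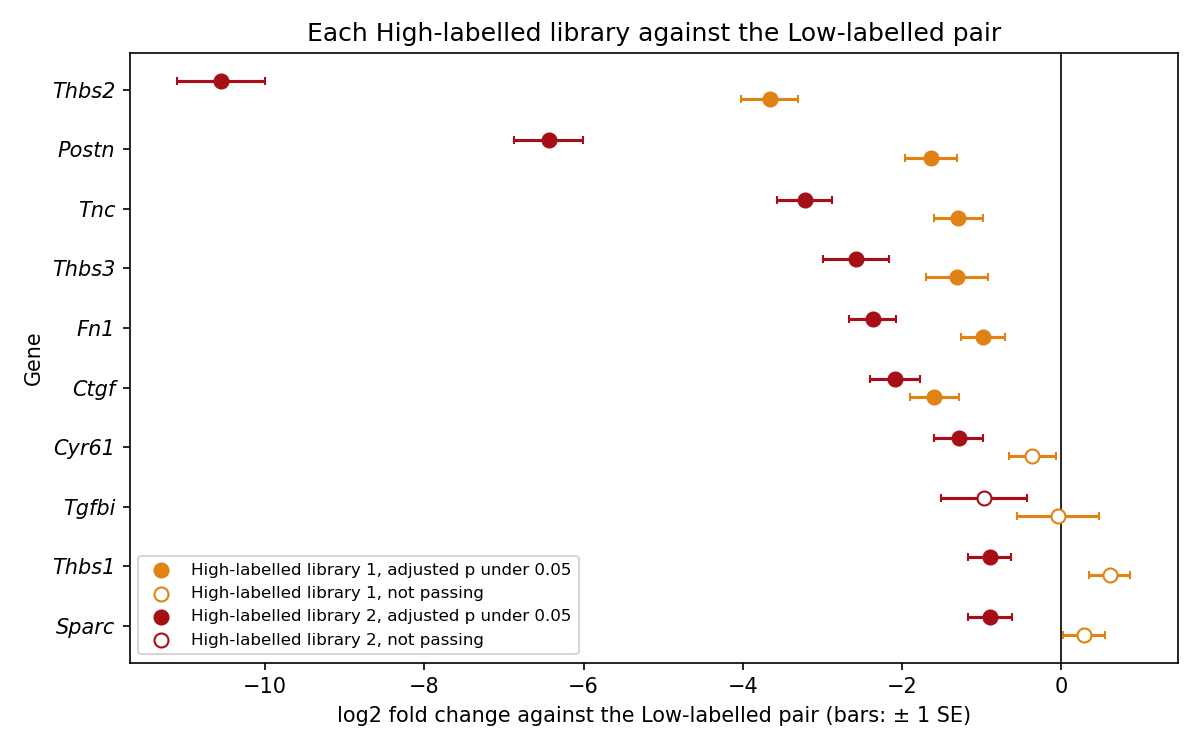
Log2 fold change of each gene in each High-labelled library against the Low-labelled pair (horizontal axis, bars ± 1 SE from the 3-group edgeR fit), filled where the adjusted p is under 0.05. For every gene the value of High-labelled library 2 lies to the left of that of library 1, from -0.89 for Sparc to -10.55 for Thbs2.

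RNA of the fibronectin scaffold fell in both clone libraries by different amounts. Fn1 (ENSMUSG00000026193.15, minus strand of chromosome 1, 71585520 to 71653200, mm10) stood at 315 and 429 FPKM in the Low-labelled libraries, 190 FPKM in High-labelled library 1 and 72.5 FPKM in library 2. The groups did not overlap, but the High-labelled values differed more from each other in ratio than the Low-labelled ones did. Over both clones the log2 fold change was -1.52 ± 0.49 (SE) and did not pass (adjusted p = 0.205). It passed in 3 of 13 alternative settings, DESeq2 among them (adjusted p = 0.00983). Alone, library 1 was 1.98-fold lower than the Low-labelled pair (adjusted p = 0.0034) and library 2 was 5.17-fold lower (adjusted p = 1.15e-13). The difference between the clones also passed, at 2.61-fold (adjusted p = 2.02e-04).

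Among the thrombospondins, secreted calcium-binding glycoproteins, Thbs1 fell in 1 clone library and Thbs2 and Thbs3 fell in both. Thbs1, a trimeric thrombospondin that can activate latent TGF-beta and restrains angiogenesis, was among the most abundant of the 10. Thbs1 (ENSMUSG00000040152.8, plus strand of chromosome 2, 118111876 to 118127133, mm10) was at 415 and 421 FPKM in the Low-labelled libraries, 631 FPKM in High-labelled library 1 and 223 FPKM in library 2. The clone libraries thus lay on either side of a tight parental pair. Their group mean of 427 ± 289 FPKM (SD, n = 2) lay close to the parental mean of 418 ± 4.38 FPKM, with neither clone library near it. Library 2 was 1.87-fold lower than the pair (adjusted p = 0.00757), the value of library 1 did not pass (log2 fold change 0.61 ± 0.25 SE, adjusted p = 0.0793), and the clones differed 2.84-fold (adjusted p = 2.95e-05).

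Thbs2, a close relative of Thbs1 that shares its trimeric form and is known for a role in collagen fibril assembly, had the widest range of the 10. Thbs2 (ENSMUSG00000023885.9, chr17:14665500-14694235, minus strand, mm10) stood at 89.7 and 104 FPKM in the Low-labelled libraries, 7.58 FPKM in High-labelled library 1 and 0.0632 FPKM in library 2. The fragments behind these values were 7032, 16360, 753 and 9. Thbs2 was close to silent in library 2 and clearly present in library 1. The ratio of the Low-labelled pair to library 2 in scaled fragments was 1559, with a 95% Poisson interval of 821 to 3410 that covers counting error only. Both falls passed (adjusted p = 7.42e-22 in library 1 and 1.81e-76 in library 2), as did the difference between the clones, 118-fold (adjusted p = 9.83e-36). Over both clones the test was not passed (adjusted p = 0.394), with a log2 fold change of -4.66 ± 2.16 (SE).

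Thbs3, one of the pentameric thrombospondins, was a minor transcript at 7.44 and 6.20 FPKM in the Low-labelled libraries, 2.72 FPKM in High-labelled library 1 and 1.13 FPKM in library 2. Its gene (ENSMUSG00000028047.11) lies on the plus strand of chromosome 3, 89215180 to 89226837, mm10. Both clone libraries lay below both parental ones, by 2.48-fold (adjusted p = 0.00582) and 5.96-fold (adjusted p = 1.85e-08). The group test missed the threshold (log2 fold change -1.82 ± 0.46 SE, adjusted p = 0.0987), and passed with DESeq2 (adjusted p = 0.00703) or without the filter on low counts (adjusted p = 0.0116). The clones differed 2.41-fold (adjusted p = 0.0451), a call lost with limma-voom or without that filter (adjusted p up to 0.0821). The balance between the family members shifted: per kilobase, Thbs1 exceeded Thbs2 4.63- and 4.05-fold in the Low-labelled libraries, 83.3-fold in High-labelled library 1 and 3522-fold in library 2.

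**Figure D3:**
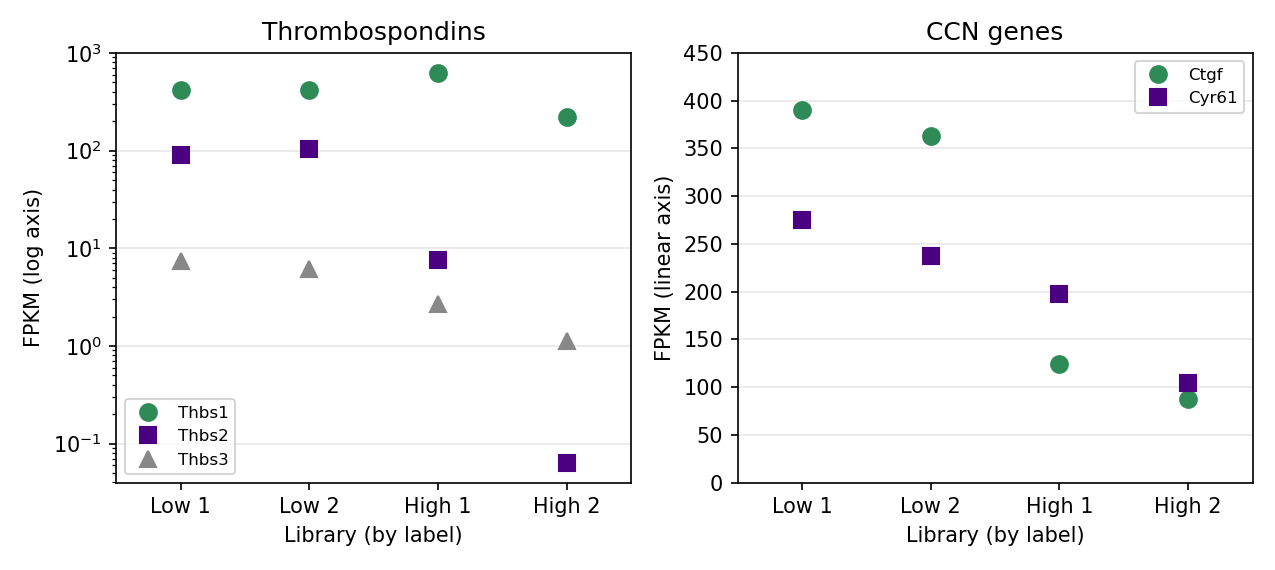
FPKM per library of the thrombospondins (left, log axis) and the CCN genes Ctgf and Cyr61 (right, linear axis from 0). Thbs2 drops from 104 to 0.0632 FPKM across libraries while Thbs1 stays between 223 and 631 FPKM, and Ctgf is above Cyr61 in both Low-labelled libraries and below it in both High-labelled ones.

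Tenascin C and periostin, matrix proteins of wound and tumour stroma that modulate adhesion to fibronectin, were lower in both clones and lowest in library 2. Tnc (ENSMUSG00000028364.15, minus strand of chromosome 4, 63959785 to 64047015, mm10) stood at 69.7 and 89.2 FPKM in the Low-labelled libraries, 32.1 FPKM in High-labelled library 1 and 8.46 FPKM in library 2. It fell 2.45-fold in library 1 (adjusted p = 4.04e-04) and 9.33-fold in library 2 (adjusted p = 2.61e-18). Over both clones the log2 fold change was -1.96 ± 0.72 (SE), without passing (adjusted p = 0.285). It passed in 3 of 13 alternative settings, DESeq2 among them (adjusted p = 0.00446).

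Postn (ENSMUSG00000027750.16, plus strand of chromosome 3, 54361109 to 54391037, mm10) was at 119 and 140 FPKM in the Low-labelled libraries, 40.4 FPKM in High-labelled library 1 and 1.46 FPKM in library 2. After Thbs2 it had the widest gap between the clones, 27.8-fold (adjusted p = 2.59e-27), with 2115 fragments in library 1 and 109 in library 2. Against the Low-labelled pair it fell 3.12-fold in library 1 (adjusted p = 8.63e-06) and 86.7-fold in library 2 (adjusted p = 5.04e-46), and the test over both did not pass (log2 fold change -2.59 ± 1.64 SE, adjusted p = 0.511). Set against fibronectin, periostin transcript per kilobase was 37.9% and 32.7% of Fn1 in the Low-labelled libraries, 21.2% in High-labelled library 1 and 2.02% in library 2. The difference in that ratio was not tested.

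Tgfbi, a fasciclin-domain protein related to periostin, was the least abundant of the 10 in 3 libraries. Tgfbi (ENSMUSG00000035493.10, plus strand of chromosome 13, 56609523 to 56639562, mm10) was at 1.74 and 1.42 FPKM in the Low-labelled libraries, 1.51 FPKM in High-labelled library 1 and 0.795 FPKM in library 2, from 49 to 97 fragments each. The groups overlapped, and no comparison passed (log2 fold change -0.45 ± 0.57 SE over both clones, adjusted p = 0.731, and -0.97 ± 0.54 SE in library 2, adjusted p = 0.235).

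Sparc, a collagen-binding glycoprotein and the most abundant of the 10 in every library, ordered the libraries much as Thbs1 did. Sparc (ENSMUSG00000018593.13, chr11:55394500-55423183, minus strand, mm10) reached 869 and 700 FPKM in the Low-labelled libraries, 948 FPKM in High-labelled library 1 and 419 FPKM in library 2. Library 1 was the highest of all 4 and library 2 the lowest. The fall in library 2 was 1.86-fold (adjusted p = 0.0107), library 1 did not pass (0.29 ± 0.27 on the log2 scale, SE, adjusted p = 0.521), and the clones differed 2.27-fold (adjusted p = 0.00289). The group log2 fold change was -0.19 ± 0.40 (SE, adjusted p = 0.855).

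The CCN genes encode short-lived secreted regulators of adhesion and are widely used as readouts of YAP and TEAD activity. Ctgf (ENSMUSG00000019997.11, listed as Ccn2 in RefSeq, plus strand of chromosome 10, 24595442 to 24598683, mm10) was at 391 and 363 FPKM in the Low-labelled libraries, 124 FPKM in High-labelled library 1 and 88.0 FPKM in library 2. Here the clone libraries stood close together and far below the parental pair. Ctgf fell 3.53-fold over both (log2 fold change -1.82 ± 0.26 SE, adjusted p = 0.0148). The call was lost with limma on FPKM values without a filter (adjusted p = 0.0893). It was also lost without either Low-labelled library, where the spread comes from the High-labelled pair alone. It was kept without either High-labelled library, but there the spread comes from the Low-labelled pair alone and does not measure variation between clones. Over 13 alternative settings the log2 fold change ranged from -2.09 to -1.60. The difference between the clones, 0.49 ± 0.33 on the log2 scale (SE), did not pass (adjusted p = 0.430).

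Cyr61 (ENSMUSG00000028195.4, listed as Ccn1 in RefSeq, chr3:145646976-145649981, minus strand, mm10) reached 275 and 237 FPKM in the Low-labelled libraries, 198 FPKM in High-labelled library 1 and 104 FPKM in library 2. The groups did not overlap, yet library 1 lay near the parental range. Cyr61 fell 2.44-fold in library 2 (adjusted p = 3.77e-04), whereas library 1 (log2 fold change -0.36 ± 0.29 SE, adjusted p = 0.447) and the group (-0.75 ± 0.33 SE, adjusted p = 0.286) did not pass. The order of the 2 CCN genes changed: the ratio of Ctgf to Cyr61 per kilobase was 1.42 and 1.53 in the Low-labelled libraries and 0.626 and 0.843 in High-labelled libraries 1 and 2. That ratio was not tested.

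By level per kilobase in the Low-labelled libraries, the genes ran Sparc, Thbs1, Ctgf, Fn1, Cyr61, Postn, Thbs2, Tnc, Thbs3, Tgfbi. Of neighbours in that order, Ctgf and Fn1 overlapped between the duplicates, and no other neighbouring pair did. Thbs1 and Fn1, which are not neighbours, also overlapped. Fn1 was below Thbs1 in Low-labelled library 1 (315 against 415 FPKM) and above it in library 2 (429 against 421 FPKM). Sparc and Thbs1 held the first and second place in both High-labelled libraries. Thbs2, which ranked 969 of 12987 tested genes by mean level in the Low-labelled pair, ranked 7718 in High-labelled library 1 and 12784 in library 2, and Postn moved from rank 683 to 2295 and 10706. Fn1 moved less, from 203 to 375 and 1327.

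Promoter sequence is shown for Cyr61, because CCN genes are known TEAD targets, and for Thbs2 and Postn, because these had the widest ranges and fell in both clone libraries. RefSeq promoters (GRCm38.p6, the mm10 build) were matched for 7 of the 10 genes, all but Fn1, Thbs1 and Ctgf, and the 250 bases before each listed start were searched on both strands. For the core bound by TEAD factors the letters GGAATG were searched. For AP-1 the letters were TGANTCA and for the promoter element called the TATA box they were TATAAA, while the CArG box is the known site of SRF. No match overlapped another. Capitals mark matches, and each line reads 5′ to 3′ on the gene's strand. The windows are chr3:145649986-145650235 (minus strand) for Cyr61, chr17:14694263-14694512 (minus strand) for Thbs2 and chr3:54360857-54361106 (plus strand, the second of 2 listed starts) for Postn.
Cyr61: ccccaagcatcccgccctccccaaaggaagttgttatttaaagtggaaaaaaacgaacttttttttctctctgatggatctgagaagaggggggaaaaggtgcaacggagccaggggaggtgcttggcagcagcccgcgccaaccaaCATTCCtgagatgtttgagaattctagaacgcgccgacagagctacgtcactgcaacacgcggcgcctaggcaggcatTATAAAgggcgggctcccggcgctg
Thbs2: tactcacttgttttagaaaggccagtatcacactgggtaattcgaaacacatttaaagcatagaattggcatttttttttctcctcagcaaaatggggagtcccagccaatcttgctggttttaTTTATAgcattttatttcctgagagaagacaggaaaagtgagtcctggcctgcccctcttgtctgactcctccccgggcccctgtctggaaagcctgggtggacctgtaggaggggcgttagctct
Postn: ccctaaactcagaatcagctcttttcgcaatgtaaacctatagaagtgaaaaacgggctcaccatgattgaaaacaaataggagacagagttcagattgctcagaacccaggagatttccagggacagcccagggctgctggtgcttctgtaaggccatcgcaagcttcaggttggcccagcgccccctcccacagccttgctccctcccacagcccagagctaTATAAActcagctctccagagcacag
Cyr61 held a TEAD core on the reverse strand, 103 to 98 bases before the start, and a TATA box 25 to 20 bases before it. It was the only 1 of the 7 with a TEAD core, which 12.6% of all listed promoters held in the same window. A TATA box match was present in 4 of the 7 genes (Cyr61, Thbs2, Tnc and Postn), against 12.4% of promoters. Tnc and Postn have 2 listed starts and were counted if either window matched, whereas the percentages count single windows. Postn matched before its second start only, 26 to 21 bases before it. The match of Thbs2 lay 126 to 121 bases before its start, on the reverse strand. None of the windows of the 7 genes held an AP-1 site (6.75% of promoters) or a CArG box (1.47%). These matches describe the letters in the windows and do not show binding.

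Receptors for these proteins, mainly integrins, were examined next. Of 15 tested receptors, 4 fell, 1 rose and 10 did not pass over both clones, where 2.47% of all tested genes passed in either direction. Itga5, the alpha subunit of the main fibronectin receptor, went from 74.9 and 61.9 FPKM in the Low-labelled libraries to 15.4 and 12.9 FPKM in the High-labelled ones, a fall that passed (adjusted p = 0.00622). Its partner Itgb1, the beta subunit, did not pass and was at 449 and 568 FPKM against 533 and 455 FPKM, overlapping. Itga9, a tenascin-binding subunit, went from 2.07 and 2.14 FPKM to 0.0254 and 0.0243 FPKM, with 3 and 4 fragments left (adjusted p = 0.0021). Itgb3, the beta subunit of a vitronectin and fibronectin receptor, fell 16.4-fold (adjusted p = 0.0424), and Lrp1, an endocytic receptor that clears thrombospondins, fell 4.17-fold (adjusted p = 0.0443). Itgb6, whose heterodimer binds fibronectin and latent TGF-beta, rose from 1.46 and 1.35 FPKM to 8.67 and 6.67 FPKM (5.47-fold, adjusted p = 0.00976). Calr, a chaperone that also binds thrombospondin at the surface, was at 375 to 574 FPKM in all libraries. Without Low-labelled library 1 or 2, edgeR called 0 of the receptors (6 and 5 at an unadjusted p under 0.05). Without High-labelled library 1 or 2 it called 10 each time, where it called 16.3% and 18.6% of all tested genes.

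A further list held proteases that cut fibronectin or matricellular proteins and so remodel the matrix. Of 12 tested, 5 fell, 0 rose and 7 did not pass (2.47% of all tested genes passed), 9 had a log2 fold change below 0, and the list had a median log2 fold change of -1.75. Adamts4, a metalloprotease, fell 21.0-fold (adjusted p = 0.0021), and Bmp1, which processes procollagens and is known to bind fibronectin and periostin, fell 4.19-fold from 218 and 181 FPKM to 49.8 and 44.6 FPKM (adjusted p = 0.00765). The gelatinase Mmp9 fell 3.69-fold (adjusted p = 0.0104), and the plasminogen activators Plau and Plat fell 3.45- and 3.26-fold (adjusted p = 0.0122 and 0.022). By mean over the 4 libraries Htra1 was the most abundant, at 137 and 118 FPKM in the Low-labelled libraries against 277 and 264 FPKM, and Mmp14 was at 111 to 179 FPKM in all libraries. Without Low-labelled library 1 or 2, edgeR called 0 of the proteases (7 at an unadjusted p under 0.05 each time). Without High-labelled library 1 or 2 it called 10 each time, where it called 16.3% and 18.6% of all tested genes.

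Genes of the adhesion sites where fibronectin fibrils form made up another list. Of 15 tested, 2 fell and 0 rose over both clones, where 1.33% of all tested genes fell and 1.14% rose. The median log2 fold change of the 15 was -0.33. Tns1, a tensin of fibrillar adhesions, fell 6.09-fold from 14.5 and 16.2 FPKM to 3.37 and 1.64 FPKM (adjusted p = 0.0229), and Tln2, a talin that activates integrins, fell 4.65-fold (adjusted p = 0.0101). The integrin-linked kinase Ilk, at 61.4 to 98.6 FPKM, and its partner Parva, at 47.5 to 74.7 FPKM, had the highest means over the 4 libraries. Both calls were lost without either Low-labelled library, where edgeR called 0 (2 at an unadjusted p under 0.05 each time), and 5 were called without High-labelled library 1 or 2, against 16.3% and 18.6% of all tested genes.

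Upstream of these genes, TGF-beta signalling was examined first. Among 20 TGF-beta ligands, receptors, SMADs and feedback genes the median log2 fold change was 0.02. Over both clones 1 fell and 0 rose, where 1.33% of all tested genes fell and 1.14% rose. The 1 that fell was the ligand Tgfb1, from 43.6 and 31.8 FPKM to 16.2 and 13.3 FPKM (2.54-fold, adjusted p = 0.0489). Pmepa1, a feedback inhibitor of the pathway and among its most abundant genes, was at 123 to 157 FPKM. Without Low-labelled library 1 or 2, 0 were called (4 at an unadjusted p under 0.05 each time). Without High-labelled library 1 the test called 6 of the 20, and without library 2 it called 5, where it called 16.3% and 18.6% of all tested genes.

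Among 16 genes of the Hippo pathway and the TEAD factors, edgeR called 0 over both clones (2 at an unadjusted p under 0.05), and 3 of them without either High-labelled library, where it called 16.3% and 18.6% of all tested genes. Over both clones 2.47% of all tested genes passed in either direction. The median log2 fold change of the 16 was -0.15. Mob1a and Sav1, regulators of the Hippo kinases, ranged from 60.5 to 91.5 and from 46.3 to 66.2 FPKM. Among 20 further genes of a published YAP target signature the median was 0.02. Of these, 2 fell, 1 rose and 17 did not pass, where 1.33% of all tested genes fell and 1.14% rose. Those that fell were tissue factor, F3 (4.27-fold, adjusted p = 0.0258), and Fjx1 (3.13-fold, adjusted p = 0.0426), and the 1 that rose was the stress gene Gadd45a (3.31-fold, adjusted p = 0.0322). Ankrd1, a cardiac ankyrin repeat protein commonly read beside Ctgf and Cyr61, was at 165 and 160 FPKM in the Low-labelled libraries and 194 and 152 FPKM in the High-labelled ones, so its groups overlapped. The receptor kinase Axl was at 153 to 174 FPKM in all. These 3 calls were lost without either Low-labelled library, where edgeR called 0 of the signature (4 and 5 at an unadjusted p under 0.05), and 8 and 9 were called without High-labelled library 1 and 2, against 16.3% and 18.6% of all tested genes.

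All 15 tested genes of the SRF and actin list had a log2 fold change below 0, as did 47.8% of all tested genes, with a median of -0.70. Of these, 1 fell past the threshold, where 1.33% of all tested genes did. It was the actin-binding protein Cnn2, from 254 and 198 FPKM to 95.7 and 100 FPKM (2.29-fold, adjusted p = 0.0447). The cytoplasmic actins Actb, at 3020 to 4768 FPKM, and Actg1, at 1646 to 2611 FPKM, were the most abundant. The call was lost without either Low-labelled library (0 called, 3 at an unadjusted p under 0.05 each time), while 9 and 6 fell without High-labelled library 1 and 2, where 7.53% and 8.05% of all tested genes fell.

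**Figure D4:**
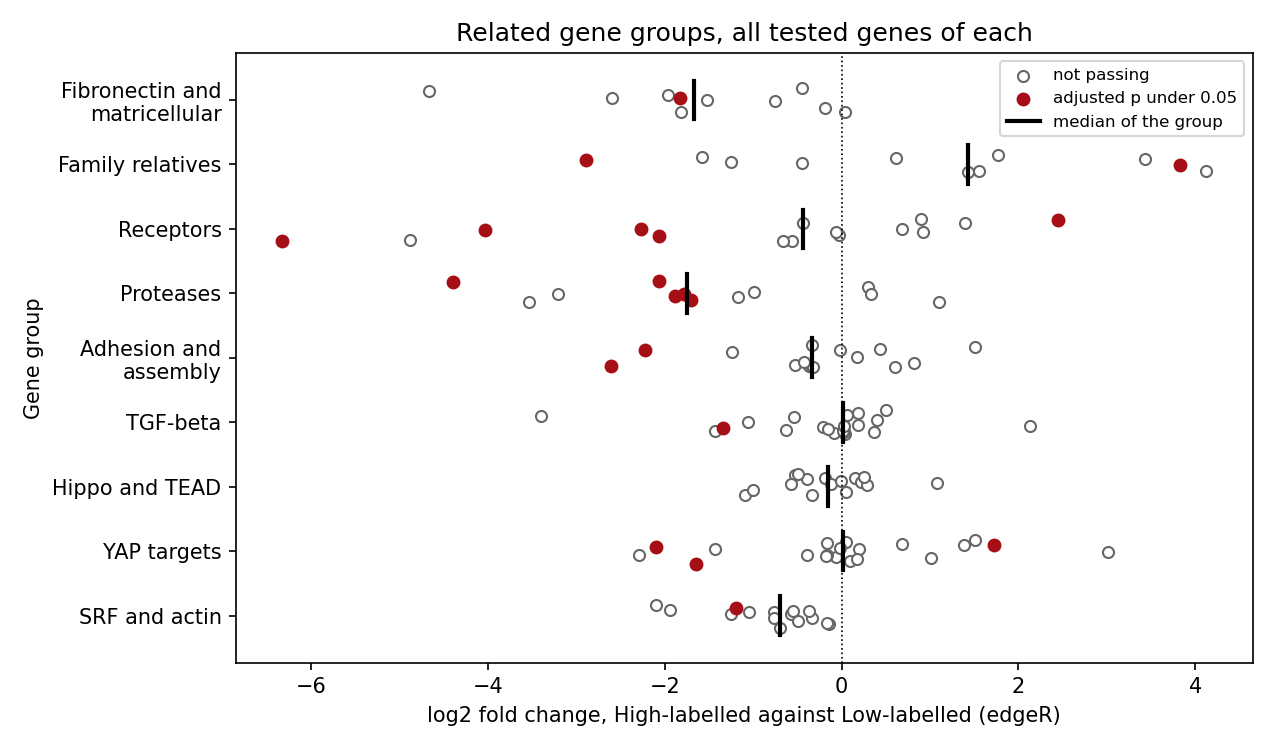
Log2 fold change of every tested gene (points, filled where the adjusted p is under 0.05) in the 10 genes and 8 related lists, High-labelled against Low-labelled, with the median of each list as a bar. The 10 genes and the proteases have the lowest medians, -1.67 and -1.75, and the family relatives the highest, 1.43.

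Markers of other cell types differed between the same libraries. Fibroblast markers summed to 1873 and 1641 FPKM in the Low-labelled libraries, 1363 FPKM in High-labelled library 1 and 897 FPKM in library 2. Of 10 such markers, 8 were tested, with a median log2 fold change of -2.09. Over both clones 1 fell and 0 rose, where 1.33% of all tested genes fell and 1.14% rose. The 1 that fell was Fap, a serine protease of activated fibroblasts, from 244 and 702 fragments in the Low-labelled libraries to 7 and 2 (adjusted p = 0.00738). Col1a1 was at 557 and 471 FPKM against 13.9 and 3.53 FPKM, and S100a4 at 559 and 471 FPKM against 1081 and 797 FPKM. The remaining markers, named after their values were seen, went in different directions. Of the 8 tested, log2 fold changes over both clones were negative for 5 and positive for 3. The collagen gene Col1a2 went from 231 and 197 FPKM in the Low-labelled libraries to 2.90 and 60.7 FPKM in High-labelled libraries 1 and 2. In the same order Col3a1 was at 365, 340, 31.1 and 0.375 FPKM, and Pdgfrb at 138, 133, 80.3 and 19.1 FPKM. Thy1 had at most 14 fragments in any library and was not tested. The proteoglycan Dcn was at 2.48 and 3.40 FPKM in the Low-labelled libraries, 118 FPKM in High-labelled library 1 and 11.5 FPKM in library 2, and in the 3-group fit rose in both (adjusted p = 6.96e-60 and 3.44e-09). The PDGF receptor gene Pdgfra rose in library 1 (adjusted p = 1.65e-05) and fell in library 2 (adjusted p = 2.1e-06). The proteoglycan gene Lum was listed at 0 in every library. In the 3-group fit the median log2 fold change of the 8 was -2.12 in library 1 and -2.31 in library 2. The medians of all tested genes in that fit were -0.01 and -0.003. Of 7 tested basal and myoepithelial markers, 1 fell and 0 rose over both clones, where 1.33% of all tested genes fell and 1.14% rose. The 1 that fell was Acta2, smooth-muscle actin, from 553 and 483 FPKM to 9.45 and 3.59 FPKM (79.2-fold, adjusted p = 0.00976). Most of this list went the other way: 5 of the 7 had a log2 fold change above 0 and 2 below, with a median of 0.20. Krt14 was at 663 and 418 FPKM against 859 and 1792 FPKM. Among 10 epithelial markers edgeR called 0 over both clones (5 at an unadjusted p under 0.05), while 8 rose without High-labelled library 1, and 2 fell and 1 rose without library 2 (in all, 16.3% and 18.6% of all tested genes passed in those fits). The keratins Krt7 and Krt18 were at 363 and 253 FPKM and at 443 and 297 FPKM in the Low-labelled libraries, against 354 and 1194 FPKM and 151 and 474 FPKM in High-labelled libraries 1 and 2. In bulk RNA, fewer cells of a type and less RNA per cell cannot be told apart, and the part of these markers in the matricellular differences was not tested. The calls of Fap and Acta2 were lost without either Low-labelled library (0 called in either list, with 3 and 2 fibroblast and 3 and 1 basal markers at an unadjusted p under 0.05). Flt1, a VEGF receptor, was the 1 endothelial marker tested and fell 3.18-fold (adjusted p = 0.0272, not kept without either Low-labelled library), Pecam1 was at most 0.203 FPKM, and of leukocyte markers Csf1r reached 7.37 FPKM and Cd68 1.64 FPKM.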

How the data were processed

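RNA from 4 libraries (500 ng each, strand-specific preparation, per the labels' protocols) was analysed from the authors' deposited gene table. Per the submitters' processing notes, reads were handled with Cuffdiff 2.2.1, TopHat2 2.0.13 and cutadapt 1.5 (build mm10). Annotation and strand setting: not given in the sources used here. Per the file headers, the table holds estimated counts of fragments (99.18% whole within 1e-06, rounded before testing), a scaled signal from the authors (fragments times a factor per library, 0.7291 to 1.4646) and FPKM as deposited after that scaling. The table numbers libraries within each condition, and 1 and 2 here only name them. The columns left unused for want of a sample numbered 0.

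Groups were compared in R 4.3.3 by the two-sided quasi-likelihood test of edgeR 4.0.16 (limma 3.58.1 for the alternatives), after TMM scaling, with robust empirical Bayes, a smallest count of 10 and Benjamini-Hochberg adjustment over 12987 genes. It had 2 residual degrees of freedom. A second fit with 3 groups on the same genes set each High-labelled library alone against the Low-labelled pair. Fold changes come from edgeR and levels from FPKM. With 2 against 2 the smallest p of an exact permutation test is 0.333, and that test was left out. The Low-labelled duplicates differed beyond sampling noise (chi-square per degree of freedom 34.3) and were kept as 2 samples. Fits were tested on simulated data in which every library had the same spread. Such data cannot check the assumption that a lone clone library varies like the Low-labelled pair. DESeq2 1.42.0, limma-voom, limma on log2 FPKM and others were alternatives.

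The genes and lists were chosen with earlier results of these data known. Named from each list were the genes called over both clones and the 2 with the highest mean FPKM, of which 1 is not reported here. For Fn1 and Ctgf, the 3 genes nearest in profile over the 4 libraries were named.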

Additional observations from a re-analysis of the deposited data

Results flagged for a closer look

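For 7 of the 10 genes, the clone libraries differed in their change against the same Low-labelled pair, by the test of the difference between them in the 3-group edgeR fit. The log2 difference of High-labelled library 1 over library 2 was 6.88 for Thbs2, 4.80 for Postn, 1.93 for Tnc, 1.51 for Thbs1, 1.39 for Fn1, 1.27 for Thbs3 and 1.18 for Sparc. All 7 were higher in library 1, where 6.47% of all tested genes were. For Thbs1 and Sparc, library 1 stood above both Low-labelled libraries and library 2 below both. The spread of this fit rests on the Low-labelled duplicates alone, and each clone is 1 library, so clone and library cannot be told apart.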

How the results depend on the processing

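The count of the 10 genes called over both clones was 1, and stayed 1 with DESeq2's size factors, limma-voom, limma on log2(FPKM + 1) or log2(FPKM + 0.1) and a non-robust fit. DESeq2 called 4 of the 10 and 1162 of all genes. Without a filter on low counts edgeR called 2 and 814. Limma on log2(FPKM + 1) called 169 of all genes and on log2(FPKM + 0.1) 144. Without an FPKM filter limma called 0 of the 10 and 0 of all genes, with 5 and 2468 at an unadjusted p under 0.05. Leaving out 1 library gave 0 to 9 of the 10 and 0 to 2475 of all genes.

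The replicate number only names the libraries. With it as a block, 2 of the 10 (Ctgf and Thbs3) and 469 of all genes were called. The deviations of same-numbered libraries correlated at -0.139 over genes.

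The log2 fold change of Thbs1 over both clones, 0.04, changed sign to -0.15 with limma-voom, -0.16 with limma on log2(FPKM + 1), with or without the filter, -0.16 on log2(FPKM + 0.1), -0.15 with the block and ranged from -0.90 to 0.60 over fits that left out 1 library (-0.90 without High-labelled library 1). That of Sparc, -0.19, ranged from -0.89 without High-labelled library 1 to 0.28 without High-labelled library 2. The cause was not tested beyond the values per library. The counts of 6, 9 and 7 from the 3-group fit stayed within 1 with each alternative run. Of 22 genes called in the related lists, 14 passed in 10 of 13 alternatives, and those that passed in fewer were Lrp1, Itga9 and Flt1 (8), Sparcl1 (7), Tnxb (7 of 11), Tgfb1 and Fjx1 (6) and Cnn2 (5). The alternatives include the fits that left out a High-labelled library, in which a pass does not measure variation between clones. The 3-group fit was not run without a Low-labelled library, which would leave it no residual degrees of freedom. Tgfbi had fewer than 100 fragments in each library.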

Other observations

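Relatives of the 10 genes also differed between the clone libraries. In the 3-group edgeR fit 5 of the tested relatives were higher in library 1 than in library 2 and 0 lower, with a median log2 difference of 0.66, where the 10 genes had 7 and a median of 1.33 (6.47% of all tested genes were higher). Of 20 further thrombospondins, tenascins, SPARC-family, CCN and related genes, 11 were tested. Over both clones 9 of them did not pass, where 2.47% of all tested genes passed in either direction. Sparcl1, a SPARC relative, fell 7.41-fold (adjusted p = 0.0306) and Tnxb, tenascin X, rose 14.2-fold (adjusted p = 0.0288). Both calls were lost without either Low-labelled library, where edgeR called 0 (4 and 3 at an unadjusted p under 0.05). The median log2 fold change was 1.43 over both clones, 1.57 in High-labelled library 1 and -0.58 in library 2. The most abundant were osteopontin, Spp1, at 1636 and 1189 FPKM in the Low-labelled libraries against 1717 and 2569 FPKM, and Fstl1.

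The following relatives were chosen after their values were seen, and are given as values. Fstl1, a secreted SPARC-family glycoprotein, was at 379 and 439 FPKM in the Low-labelled libraries, 516 FPKM in High-labelled library 1 and 77.9 FPKM in library 2. The calcium-binding SPARC relative Smoc2 was at 2.41 and 3.12 FPKM, then 55.2 and 4.39 FPKM. Tnn, tenascin N, was at 0.143 and 0.130 FPKM, then 4.74 and 0.00717 FPKM. Wisp2, a CCN relative, was at 119 and 83.0 FPKM, then 58.9 and 8.58 FPKM. Smoc1 was at 23.8 and 21.5 FPKM, then 106 and 15.1 FPKM. Library 1 stood above the parental pair for Fstl1, Smoc2, Tnn and Smoc1 and below it for Wisp2. Library 2 lay below the pair for all but Smoc2.

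The genes nearest to Fn1 in profile over the 4 libraries, by Euclidean distance between centred log2 CPM values, were Sfrp4 (0.09), Hivep3 (0.11) and Nexn (0.19). Those nearest to Ctgf were Pkdcc (0.17), Dapk1 (0.19) and Ralgps2 (0.21). Sfrp4, Hivep3 and Dapk1 had at most 66, 89 and 101 fragments in any library, so counting error weighs on their profiles. With 4 libraries such nearness is a description of these samples.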
